A study of Mus musculus with 12 samples.

Results

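The azurophil granule genes studied here are 6 of the 35303 gene symbols in the count table, and they were followed through 3 groups of MDSCs. They were taken from the table by symbol. They are Mpo, the serine proteases Elane, Prtn3, Ctsg, and Prss57, and Ms4a3, a membrane protein gene expressed together with them in granulocyte progenitors. MDSCs are immunosuppressive myeloid cells, and those studied here were grown from the bone marrow of wild-type female C57BL/6 mice, aged 6 to 10 weeks, for 3 days with GM-CSF and IL-6, and then purified as CD11b+ Gr1+ cells. The control group was MDSC without nanoparticles. MDSC-NP-Blk carried blank PLGA nanoparticles (NPs), joined by click chemistry to azido groups on the cell surface, and CITED carried NPs loaded with rapamycin, an inhibitor of the kinase mTOR. Cells of every group were cultured with IL-6 at 40 ng/ml for another 24 hours, and each group had 4 libraries of bulk RNA-seq, labeled as biological replicates. The control described for this experiment carried no NPs, and whether it had received the azido sugar was not clear from the description. No group received free rapamycin. The labels give the tissue as CNS, but the methods describe cultured bone marrow cells, and among 7 markers of brain cells 5 had no count in any library, whereas Mbp had normalized counts of 1768 to 2243.

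Azurophil granules are the first granules a neutrophil makes, and their proteins are transcribed at the promyelocyte stage and then shut off, so that mature neutrophils store the proteins but hold little of the mRNAs. Myeloperoxidase, the product of Mpo, is a haem enzyme that makes hypochlorous acid from hydrogen peroxide and chloride. Elane encodes neutrophil elastase, Prtn3 proteinase 3, Ctsg cathepsin G, and Prss57 neutrophil serine protease 4. In progenitors their promoters are bound by the factors PU.1, C/EBP, MYB, and RUNX1.

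On GRCm39 (GENCODE release 39), Mpo lies at chr11:87684407-87695239 on the plus strand. Elane, at chr10:79722081-79724051, and Prtn3, at chr10:79710310-79719008, share the plus strand of chromosome 10 and are 3073 bases apart. Prss57, at chr10:79617308-79626795 on the minus strand, begins the same region, 83515 bases from Prtn3. Ctsg, at chr14:56337338-56340031 on the minus strand, is in the cluster of granzyme and mast cell protease genes, and Ms4a3, at chr19:11606860-11618215 on the minus strand, is among other Ms4a genes. No 31-base word of the canonical transcripts was shared with another gene for 5 of the 6, and 0.0751% of those of Prss57 were shared with Rps6. Words were compared in the transcript direction only, so sharing with antisense transcripts was not searched. By whole spans, not exons, Prtn3 overlaps the opposite gene Plppr3 over 197 bases and Prss57 overlaps the opposite gene Fstl3 over 1157 bases. Since no strand setting is stated for the counting, any reads from these stretches cannot be told apart.

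The sequences before the transcription start are shown for the 4 genes that held matches to both the PU.1 word GAGGAA and a MYB word (CAACTG or CAACGG or TAACTG or TAACGG). These are the 250 bases before the RefSeq start on the older build GRCm38.p6, whose positions differ from those above: chr11:87793534-87793783 (plus strand) for Mpo, chr10:79886062-79886311 (plus) for Elane, chr10:79879417-79879666 (plus) for Prtn3, and chr14:56102575-56102824 (minus) for Ctsg. For Prtn3 the start itself differs too, since its window lies closer to that of Elane than the starts of their spans above do. Each sequence is written 5′ to 3′ in the direction of its gene, and capitals mark the matches, which in Ctsg include a RUNX word.
Mpo: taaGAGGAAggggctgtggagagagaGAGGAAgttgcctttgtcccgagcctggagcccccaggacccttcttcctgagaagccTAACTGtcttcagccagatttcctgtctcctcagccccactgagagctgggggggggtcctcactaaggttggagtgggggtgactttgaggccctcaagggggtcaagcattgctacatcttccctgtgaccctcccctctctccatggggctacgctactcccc
Elane: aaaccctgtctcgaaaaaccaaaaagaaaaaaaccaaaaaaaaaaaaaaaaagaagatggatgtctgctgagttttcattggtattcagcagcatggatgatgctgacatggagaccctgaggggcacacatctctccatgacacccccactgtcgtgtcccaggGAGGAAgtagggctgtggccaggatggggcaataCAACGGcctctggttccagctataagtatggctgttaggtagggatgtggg
Prtn3: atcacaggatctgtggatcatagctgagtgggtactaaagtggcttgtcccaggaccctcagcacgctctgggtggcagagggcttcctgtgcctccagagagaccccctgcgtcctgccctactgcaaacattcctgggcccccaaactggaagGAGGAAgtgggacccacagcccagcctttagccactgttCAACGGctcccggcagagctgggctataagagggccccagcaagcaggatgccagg
Ctsg: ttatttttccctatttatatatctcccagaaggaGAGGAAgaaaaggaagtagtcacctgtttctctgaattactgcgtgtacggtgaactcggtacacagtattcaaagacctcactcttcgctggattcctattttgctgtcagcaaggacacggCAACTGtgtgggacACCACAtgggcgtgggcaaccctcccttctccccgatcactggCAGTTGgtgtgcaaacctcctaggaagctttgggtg

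Both strands were searched, and no match overlapped another. In Elane the PU.1 word stood at bases −85 to −80 and the MYB word CAACGG at −51 to −46, and in Prtn3 the same words stood at −95 to −90 and −56 to −51. Among 32807 RefSeq windows of this length, 23.3% held the PU.1 word, 23.7% a MYB word, and 5.4% both, against 4 of the 5 azurophil genes with an entry. The RUNX words TGTGGT and TGCGGT were in 1 of 5 (Ctsg) and in 18.6% of all windows. The C/EBP pattern TTNNGNAA was in 1 of 5 (Ms4a3, which held no PU.1 or MYB word) and in 36.8% of all windows. The words were chosen after the windows had been seen, and a match is only a description of letters. There was no entry for Prss57.

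**Figure D1:**
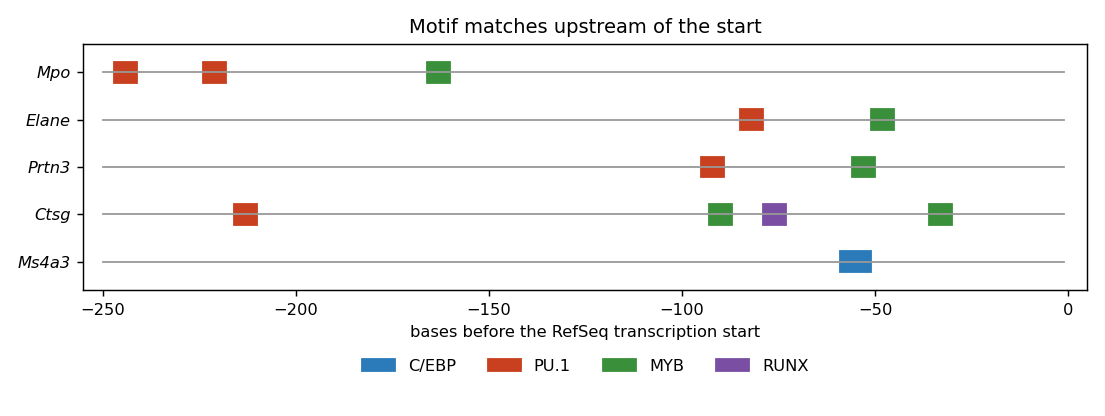
Matches to the searched words in the 250 bases before the RefSeq start of 5 azurophil genes. The x axis is the distance from the start in bases, each row is a gene, and each box is a match, colored by the factor the word is named for. In Elane and Prtn3 a PU.1 word and a MYB word follow each other at like distances from the start.

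The libraries held 20604809 to 37855478 counts. A floor of 3 counts, which covers counting error only, was at most 1.46e-05% of a library, and no azurophil gene came near it. Together the 6 genes took 0.308% to 0.338% of the counts of an MDSC library, whereas this share was 0.135% to 0.144% with blank NPs and 0.0319% to 0.0348% for CITED. Of 10 markers of myeloid cells and MDSCs, 1 was called higher (Csf3r, 1.54) and 1 lower (Ly6c1, −1.04, at a mean of 16.3 against 33.2 normalized counts) in CITED against MDSC, where 3.28% of all genes were called higher and 6.7% lower. At an adjusted p-value below 0.05, 5 of the 10 were higher and 2 lower there, against 22.2% of all genes in each direction. With blank NPs 1 was called higher (Csf3r, 1.34), and 9 of the 10 were higher than in MDSC at an adjusted p-value below 0.05, as were 19.9% of all genes. The median of the 10 was 0.36 in that comparison. It was 0.18 with the correction for length and 0.25 with that for length and GC content, both described below. Scaling by total counts alone shifted all genes by a median of −0.26 there. From MDSC-NP-Blk to CITED, Ly6c1 was called lower (−1.36). Csf1r, at 0.996 in CITED and 0.90 with blank NPs against MDSC, passed the threshold in both with either correction for length described below. Cd33 was called higher in CITED against MDSC with the length and GC correction only (1.07). Itgam, which encodes CD11b, had 0.43 in CITED against MDSC. Mean normalized counts in MDSC, MDSC-NP-Blk, and CITED were 25702, 33669, and 20232 for Ly6c2 and 3934, 4615, and 4573 for Ly6g. Transcript length moved with the groups. Across 10543 genes, which are not independent of each other, the rank correlation of length with the level of a gene relative to its mean was positive in all MDSC libraries (rho 0.218 to 0.346). It was negative in all CITED libraries (−0.341 to −0.187) and lay between −0.422 and 0.0921 with blank NPs. Fits corrected for length, or for length and GC content, were therefore run for all genes, and the calls that they changed are given beside the genes named.

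Of the 6 genes, Mpo fell most in CITED against MDSC. Its normalized counts (counts scaled by library size and TMM factor to the mean library) were 28194, 25204, 28195, and 27106 in MDSC, 7730, 9581, 10040, and 7538 in MDSC-NP-Blk, and 1277, 1191, 1293, and 1354 in CITED. The 3 groups did not overlap, and MDSC-NP-Blk, with 2 lower and 2 higher libraries, had the largest spread relative to its mean (14.6%). In CITED against MDSC, the mean of 1279 ± 67.4 against 27175 ± 1410 (SD, n = 4 each) was a 21.2-fold lower level. Its log2 fold change was −4.41, with a standard error (SE) of 0.0759 and an adjusted p of 5.2e-31 (edgeR, Benjamini-Hochberg). The blank NPs alone gave 8722 ± 1273 (SD, n = 4), which was −1.64 on the log2 scale against MDSC (SE 0.0664, edgeR adjusted p = 8.6e-20). From MDSC-NP-Blk to CITED the log2 fold change was −2.77 (SE 0.0716, edgeR adjusted p = 5.3e-25).

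Elane followed another course. Its normalized counts were 16325, 14409, 15378, and 14206 in MDSC, 11033, 10697, 11103, and 10778 in MDSC-NP-Blk, and 1707, 1477, 1554, and 1506 in CITED. MDSC-NP-Blk lay below every MDSC library but much nearer to them than to CITED. The log2 fold change was −0.47 (SE 0.0505, edgeR adjusted p = 1.8e-09) in MDSC-NP-Blk against MDSC, which did not reach the threshold of 1. It was −2.80 (SE 0.0553, edgeR adjusted p = 1.7e-28) in CITED against MDSC-NP-Blk, the lowest p-value of all genes in that comparison. Against MDSC, CITED had a log2 fold change of −3.27 (SE 0.0561), from 15080 ± 975 to 1561 ± 102 (SD, n = 4 each).

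Prtn3, the neighbor of Elane, had the same order of groups. Its normalized counts were 12776, 11739, 12398, and 11678 in MDSC, 9875, 8829, 8382, and 9309 in MDSC-NP-Blk, and 2711, 2573, 2713, and 2833 in CITED. The groups did not overlap, and again the blank NP libraries were near those of MDSC. The log2 fold changes were −0.42 (SE 0.0511) in MDSC-NP-Blk against MDSC, −1.75 (SE 0.0534) in CITED against MDSC-NP-Blk, and −2.17 (SE 0.0539) in CITED against MDSC, with edgeR adjusted p-values of 2.6e-08, 7.4e-23, and 4.0e-26.

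Ctsg, which encodes a protease with chymotrypsin-like specificity, resembled Mpo more closely in the blank NP step. Its normalized counts were 9090, 8803, 9130, and 8570 in MDSC, 3351, 3620, 3685, and 3135 in MDSC-NP-Blk, and 1527, 1237, 1469, and 1256 in CITED. All groups were apart. The log2 fold changes were −1.37 (SE 0.0604) in MDSC-NP-Blk against MDSC, −1.33 (SE 0.0628) in CITED against MDSC-NP-Blk, and −2.70 (SE 0.0644) in CITED against MDSC, with edgeR adjusted p-values of 5.7e-19, 1.1e-17, and 1.1e-26.

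Prss57, whose product cuts after arginine, had the lowest counts of the proteases. Its normalized counts were 1051, 988, 1059, and 945 in MDSC, 587, 644, 587, and 716 in MDSC-NP-Blk, and 263, 221, 206, and 238 in CITED. No 2 groups overlapped. The log2 fold changes were −0.67 (SE 0.0825) in MDSC-NP-Blk against MDSC, −1.45 (SE 0.0919) in CITED against MDSC-NP-Blk, and −2.12 (SE 0.0907) in CITED against MDSC, with edgeR adjusted p-values of 2.5e-08, 2.1e-14, and 6.2e-20.

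Ms4a3 had the smallest log2 fold change of the 6 in CITED against MDSC. Its normalized counts were 6475, 6793, 6103, and 6268 in MDSC, 3941, 3720, 3700, and 3609 in MDSC-NP-Blk, and 1822, 1624, 1579, and 1492 in CITED. The groups were apart here too. The log2 fold changes were −0.78 (SE 0.0551) in MDSC-NP-Blk against MDSC, −1.20 (SE 0.0572) in CITED against MDSC-NP-Blk, and −1.98 (SE 0.0577) in CITED against MDSC, with edgeR adjusted p-values of 9.4e-14, 1.3e-17, and 2.9e-24.

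**Figure D2:**
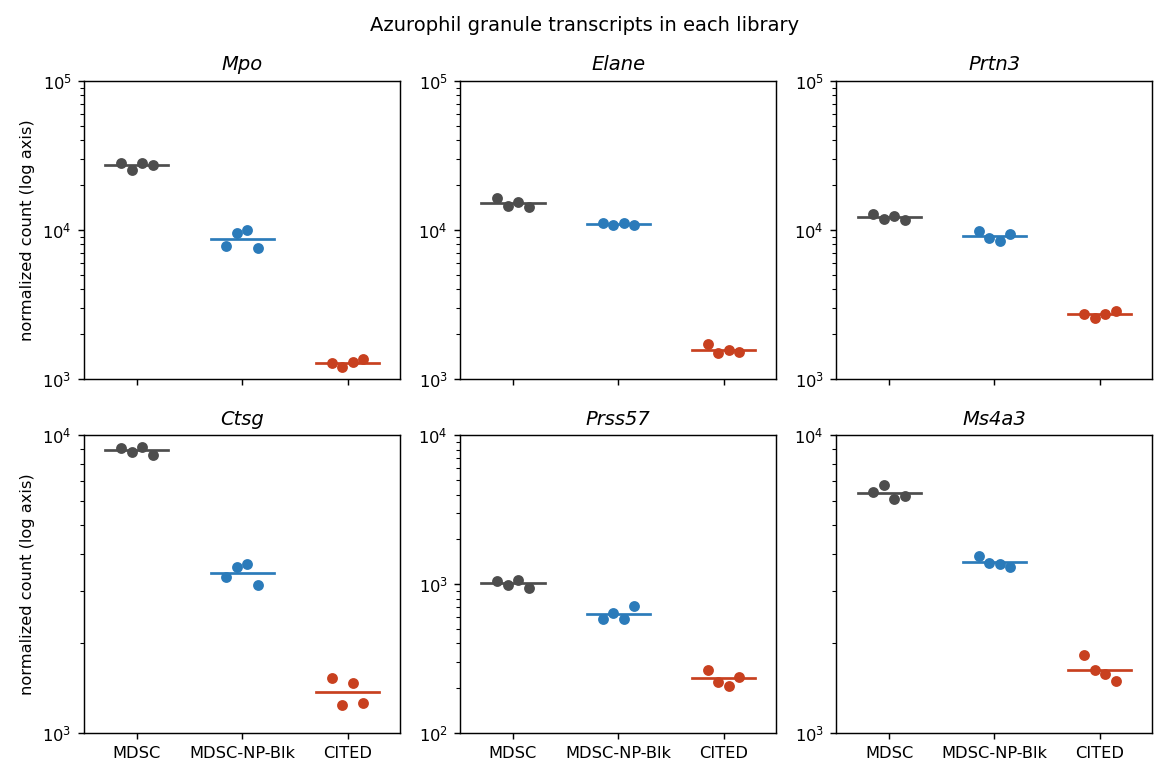
Normalized counts of the 6 genes in each library, on log axes. Each point is a library, the horizontal line is the mean of 4 libraries, and the groups are MDSC, MDSC-NP-Blk, and CITED. In every panel MDSC-NP-Blk lies between MDSC and CITED, without overlap.

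Genes were called where the log2 fold change was 1 or more in size and the adjusted p-value was under 0.05. In CITED against MDSC all 6 azurophil genes were called lower, where 6.7% of the 17676 genes tested were. Their median log2 fold change was −2.43, against −0.052 over all genes tested. In MDSC-NP-Blk against MDSC 2 of 6 (Mpo and Ctsg) were called lower, where 2.86% of all genes were, and all 6 had an adjusted p-value below 0.05 with a lower level, as 18.6% of all genes had. The median of the 6 was −0.73, against −0.027 over all genes tested. In CITED against MDSC-NP-Blk, which differ in the rapamycin load, all 6 were called lower, where 2% of all genes were, and their median was −1.60 against 0. All 4 libraries of the first group were below all 4 of the second for every azurophil gene in the 3 comparisons, which held for 21.2%, 17.4%, and 10.8% of all genes, respectively. Mpo and Ctsg were among 58 genes (0.328% of those tested) called lower in all 3. The comparisons share groups and are not independent of each other. In bulk RNA, fewer cells of a type and less RNA per cell cannot be told apart.

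**Figure D3:**
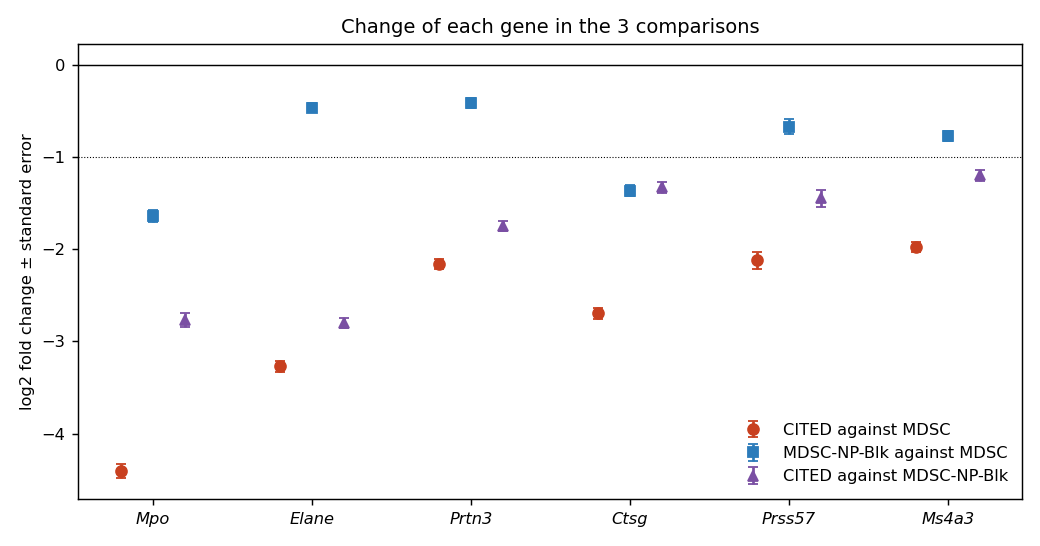
Log2 fold changes of the 6 genes in the 3 comparisons, with the standard error as bars. The dotted line is the threshold of −1. Mpo and Ctsg lie below it in all 3 comparisons, and Elane, Prtn3, Prss57, and Ms4a3 lie above it in MDSC-NP-Blk against MDSC.

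The scaling between libraries bore on the blank NP step. The TMM factors were 1.12 to 1.15 in MDSC and 0.921 to 0.947 in the other groups. With total counts only, the median shift over all genes was −0.26 in MDSC-NP-Blk against MDSC and −0.27 in CITED against MDSC. Under that scaling Ms4a3 passed the threshold in MDSC-NP-Blk against MDSC, at −1.04, and with a length correction it did so at −1.02. Elane was −0.73 with total counts, −0.71 with the length correction, and −0.78 with a length and GC correction, and Prtn3 was −0.68, −0.66, and −0.80. These stayed short of the threshold.

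Ratios within a library need no scaling, and they were used to ask whether the 6 genes fell alike. In MDSC there were 55.5 ± 2.52 Elane counts, 44.7 ± 1.53 Prtn3 counts, and 32.8 ± 1.46 Ctsg counts for every 100 Mpo counts (SD, n = 4). In MDSC-NP-Blk these numbers were 127 ± 18.3, 107 ± 22.2, and 39.9 ± 3.13. In CITED they were 122 ± 9.31, 212 ± 3.10, and 107 ± 11.8. Mpo thus passed from the most counted of the 6 in MDSC to a lower count than Prtn3 in every CITED library. For Prss57 the numbers were 3.72 ± 0.178, 7.41 ± 1.56, and 18.2 ± 1.95, and for Ms4a3 they were 23.7 ± 2.28, 43.6 ± 6.86, and 128 ± 14.6, in MDSC, MDSC-NP-Blk, and CITED.

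In CITED against MDSC all 5 ratios to Mpo were higher without overlap, by 1.14 (Elane), 2.24 (Prtn3), 1.71 (Ctsg), 2.29 (Prss57), and 2.43 (Ms4a3) on the log2 scale. In MDSC-NP-Blk against MDSC all 5 were again higher, by 1.18, 1.23, 0.28, 0.97, and 0.87 in the same order. Each of these 10 differences had p = 0.0286 (two-sided exact permutation test, the smallest p that 4 against 4 libraries allow). The adjusted p was 0.0306 over 15 ratios. All 15 have Mpo as denominator, so these tests are not independent of each other. Mpo fell more than the other 5 genes in both comparisons, and the shared rise of the ratios restates that fall. For Ctsg in MDSC-NP-Blk the difference was 0.073 with the length correction, with overlapping groups (exact permutation p = 0.0857). With the length and GC correction it was 0.15 without overlap (exact permutation p = 0.0286). The other 9 did not overlap under either correction. From MDSC-NP-Blk to CITED the ratio of Elane to Mpo differed by −0.046 with overlapping groups (exact permutation p = 0.8), whereas the ratios of Prtn3, Ctsg, Prss57, and Ms4a3 rose by 1.01, 1.43, 1.31, and 1.56 (exact permutation p = 0.0286, adjusted 0.0306). A p of this size does not show that Elane and Mpo fell alike, but their means were close.

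**Figure D4:**
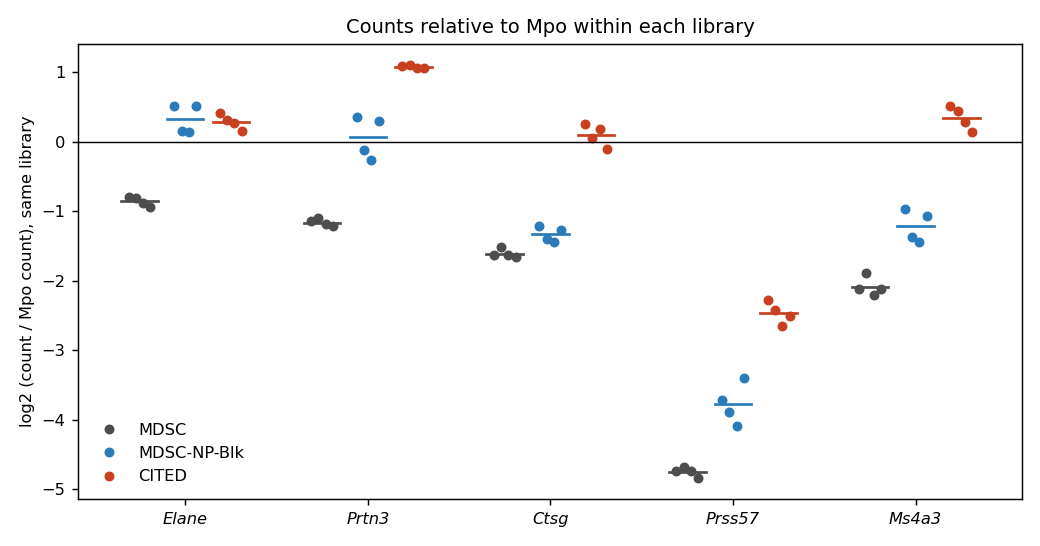
Log2 ratio of the count of 5 genes to the Mpo count of the same library. Each point is a library, short lines are means of 4, and 0 marks as many counts as Mpo. The ratio of Elane rises between MDSC and MDSC-NP-Blk and overlaps between MDSC-NP-Blk and CITED, and the other ratios are highest in CITED.

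Counts per kilobase of canonical transcript (986 bases for Elane, 1025 for Prtn3, 2750 for Mpo, 1002 for Ctsg, 995 for Ms4a3, and 2693 for Prss57) allow levels to be set between genes. These levels were not corrected for the length trend described above. In MDSC the order was Elane (15294), Prtn3 (11851), Mpo (9882), Ctsg (8881), Ms4a3 (6442), and Prss57 (375), and no neighbors in it overlapped. Mpo and Ctsg were barely apart there, with 9165 in the lowest Mpo library and 9111 in the highest Ctsg library. In MDSC-NP-Blk, Elane (11057) and Prtn3 (8877) led without overlap, and Ms4a3 (3761), Ctsg (3441), and Mpo (3172) followed with overlapping libraries, before Prss57 (235). In CITED, Prtn3 (2642) led. Ms4a3 (1637) and Elane (1583) overlapped, and Elane and Ctsg (1370) did as well. Mpo (465) and Prss57 (86.3) were below them without overlap.

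Within MDSC-NP-Blk, Mpo and Prtn3 varied in opposite ways. Replicates 2 and 3 had more Mpo (0.0367% and 0.0385% of counts) than replicates 1 and 4 (0.0294% and 0.0289%). For Prtn3 they had less, 0.0338% and 0.0322% against 0.0376% and 0.0357%. The relation to length also separated these libraries, with a rho of −0.0471 and 0.0921 in replicates 2 and 3 against −0.422 and −0.243 in replicates 1 and 4. The part of length in this spread was not tested. Elane varied little in this group, with a coefficient of variation of 1.8% against 14.6% for Mpo.

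Of the factors named for these promoters, and of others of granulocyte progenitors (15 genes), 2 were called lower and 1 higher in CITED against MDSC, where 6.7% of all genes were called lower and 3.28% higher. Gfi1, a repressor needed for neutrophil development, had normalized counts of 1640, 1575, 1864, and 1563 in MDSC, 895, 883, 842, and 1014 in MDSC-NP-Blk, and 360, 311, 444, and 407 in CITED. Its groups did not overlap, and the log2 fold change in CITED against MDSC was −2.12 (SE 0.0903, edgeR adjusted p = 5.7e-20). Myb had 1584, 1446, 1554, and 1427 in MDSC, 726, 800, 884, and 654 in MDSC-NP-Blk, and 449, 347, 314, and 421 in CITED, with a log2 fold change of −1.97 (SE 0.096, edgeR adjusted p = 1.9e-18). Cebpb, a C/EBP factor of emergency granulopoiesis, rose by 1.51 (SE 0.0521, edgeR adjusted p = 2.9e-22). The other factors moved less. Spi1, which encodes PU.1, had a log2 fold change of 0.70, Irf8 0.76, Cebpe −0.35, Cebpa −0.19, and Runx1 −0.03, and none of these reached the threshold. In MDSC-NP-Blk against MDSC 1 of the 15 (Cebpb, 1.01) was called higher, where 1.88% of all genes were, and Gfi1 and Myb had −0.87 and −0.97. With total counts only, these 2 were called lower there and Cebpb was not called. Cebpb was not called in that comparison under either correction for length (0.83, and 0.53 with GC) and, in CITED against MDSC, not with the length and GC correction (0.84).

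Of the genes that serve the same proteins after transcription, in 3 lists, none was called lower in CITED against MDSC with TMM scaling. Of all genes tested 6.7% were called lower and 3.28% higher, and at such shares lists of this size would hold few called genes. Vps13b and Calr were called lower with total counts only, and Calr (−1.02) also with the length correction. Of 13 genes of protease activation, granule storage, and sorting, 1 was called higher and 0 lower in CITED against MDSC, and 11 of the 13 had an adjusted p-value below 0.05, 7 higher and 4 lower, against 22.2% of all genes in each direction. Srgn, the proteoglycan core that holds the proteases in the granule, rose by 1.06 in CITED. It rose by 1.07 with blank NPs, both against MDSC, and neither value was called with total counts only or with the length correction (0.95 and 0.96). Ctsc, the dipeptidyl peptidase that activates the proteases, had 0.18 and 0.11. Among 10 tested serine protease inhibitors, 2 were called higher and 0 lower in CITED. Slpi, an inhibitor of elastase and cathepsin G, rose by 1.28 (0.99 and not called with the length and GC correction), and Serpinb10 rose by 1.03 (not called with total counts only), whereas Serpinb1a, another inhibitor of these enzymes, had −0.36. Of 12 genes of myeloperoxidase folding and haem synthesis, none was called. At an adjusted p-value below 0.05, 3 were higher and 7 lower, again against 22.2% of all genes in each direction. Calr, a chaperone of the myeloperoxidase precursor, had −0.92, and Alas1, which starts haem synthesis, had 0.38.

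Genes of the later granules, made after the azurophil granules, had mixed values in CITED against MDSC. Of 13 specific and gelatinase granule genes, 3 were called higher (Mmp8 1.47, Mmp9 1.23, and Retnlg 1.61) and 1 lower (Camp −1.21), with a median of −0.19 for the 13. With total counts only, Mmp9 was not called. Over all genes tested, 3.28% were called higher and 6.7% lower. In MDSC-NP-Blk against MDSC, 12 of the 13 were higher and 0 lower at an adjusted p-value below 0.05, with a median of 0.43. Of all genes, 19.9% were higher and 18.6% lower there at that level. The count of 12 holds for TMM scaling, and total counts alone shifted all genes by a median of −0.26 in that comparison. The median of the 13 was 0.26 with the length correction and 0.34 with the length and GC correction. Of 16 other genes of granulocyte progenitors, 3 were called lower and 1 higher in CITED against MDSC. Another, Plac8 (−0.89), was called lower there with total counts only and with either correction for length. Fcnb, which encodes ficolin B, fell by 2.43 on the log2 scale, Nkg7 fell by 2.28, and Cst7 fell by 1.42, whereas Csf3r, the G-CSF receptor, rose by 1.54. In CITED against MDSC-NP-Blk, Gfi1 (−1.25) and Myb (−1.003) of the factors, Ngp (−1.05) and Camp (−1.09) of the later granules, and Fcnb (−2.08), Nkg7 (−1.98), Cst7 (−1.11), and Hdc (−1.06) of the progenitor genes were called lower, as 2% of all genes were. No gene of these 3 lists was called higher, as 0.651% of all genes were. Myb was not called with the correction for length (−0.99) or for length and GC (−0.95). Ngp and Hdc were higher with blank NPs than in MDSC. Their mean normalized counts were 173315, 269603, and 130189 (Ngp) and 2890, 4630, and 2223 (Hdc) in MDSC, MDSC-NP-Blk, and CITED. The means of Gfi1, Myb, Camp, Fcnb, Nkg7, and Cst7 were lower with blank NPs than in MDSC.

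Cell division moved with the azurophil genes. Of 15 cell division genes, 13 were called lower in CITED against MDSC (median −1.52), 2 in MDSC-NP-Blk against MDSC (median −0.69), and 6 in CITED against MDSC-NP-Blk (median −0.98). Over all genes tested, 6.7%, 2.86%, and 2% were called lower in these comparisons, with medians of −0.052, −0.027, and 0. With total counts only, 15, 7, and 7 of the cell division genes were called lower, with the length correction 14, 1, and 6, and with the length and GC correction 12, 1, and 4. Total counts also raised the number called lower among all genes, from 1185 to 1890 in CITED against MDSC and from 505 to 1060 in MDSC-NP-Blk against MDSC. The summed normalized counts of the 15 cell division genes were 18233 to 19026 in the CITED libraries, against 33111 to 39673 with blank NPs and 57295 to 64048 for MDSC alone. Mki67, a marker of cycling cells, fell by 2.13 in CITED against MDSC. Markers of some other cells moved as well, and 6.7% of all genes tested were called lower in CITED against MDSC. Among eosinophil markers 4 of 6 were called lower in that comparison, with sums of 10896 to 11195 against 32837 to 39085, and 25958 to 31250 with blank NPs. Of the macrophage markers 5 of 7 were called lower, with sums of 8909 to 9485 in MDSC, 4897 to 6337 with blank NPs, and 5328 to 5620 in CITED, and all 5 B cell markers were, with sums of 271 to 369 in MDSC and 71.5 to 100.3 in CITED. Siglecf (eosinophil) and Adgre1 (macrophage) went the other way, with means of 406 and 4457 in CITED against 332 and 3776 in MDSC. Adgre1 made up most of the macrophage sum in CITED. In other lists, 1 of 7 dendritic cell markers was called lower. So was 1 of 5 basophil and mast cell markers (2 or 3 with total counts only or a length correction). No T and NK cell or erythroid marker was called there. The part of these cells and of cell division in the azurophil values was not tested.

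**Figure D5:**
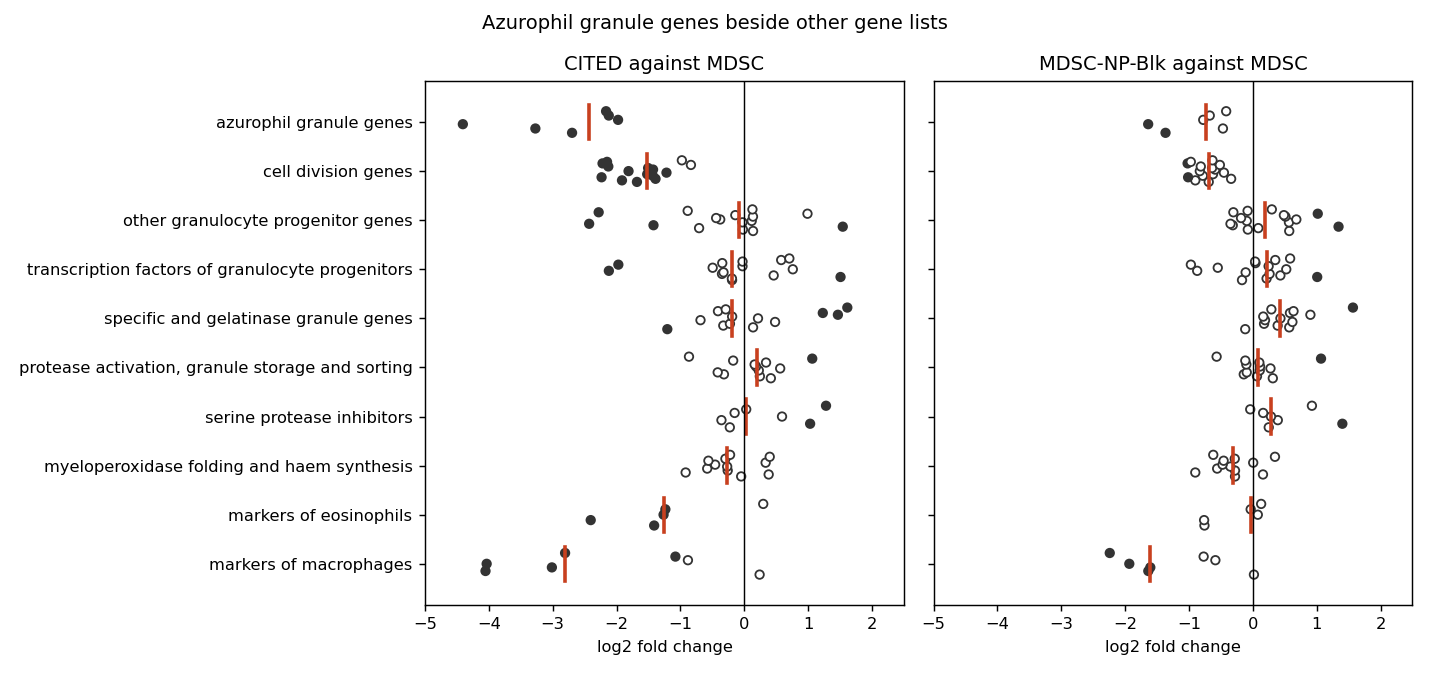
Log2 fold changes of the azurophil granule genes and of other gene lists in CITED against MDSC and in MDSC-NP-Blk against MDSC. Each circle is a gene with a mean normalized count of at least 50 in either group, filled where called, and the red line is the median of the list. The azurophil genes have a median of −2.43 in CITED against MDSC.

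The genes with the course most like that of the 6, by root mean square difference of centered log2 CPM over the 12 libraries from the mean of the 6, were F13a1 (0.178), Epx (0.203), Fcnb (0.252), Itih5 (0.265), Tfrc (0.266), Nkg7 (0.282), Brip1 (0.296), and Tet1 (0.297), of 10556 genes ranked. F13a1 encodes a coagulation factor subunit, and Tfrc the transferrin receptor. Epx, the eosinophil peroxidase and a relative of Mpo 59587 bases from it, had normalized counts of 20865, 17221, 21473, and 19736 in MDSC, 10710, 13090, 13095, and 9814 in MDSC-NP-Blk, and 3478, 3846, 3936, and 3702 in CITED. The groups were apart, and as for Mpo, replicates 2 and 3 of MDSC-NP-Blk were higher than replicates 1 and 4. The azurophil genes themselves ranked from 4 (Ctsg) to 384 (Mpo) on this measure, so that Mpo was farthest from the mean of the 6. Each of the 6 is part of that mean, so their own ranks were partly set in advance.

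Most neighbors of the 6 genes were not called. Of 51 other genes annotated within 100 kb, 22 had a mean normalized count of at least 50 in CITED or MDSC. Of these, 4 were called lower and 1 higher in CITED against MDSC, and 17 were not called. Over all genes tested, at any count, 6.7% were called lower and 3.28% higher. Epx and Tspoap1, which ends 7653 bases from Mpo, fell by 2.41 and 2.65. Plppr3, which overlaps the start of the GENCODE span of Prtn3, fell by 1.14, and Ms4a2, 5777 bases from Ms4a3, also fell by 1.14. Supt4a rose by 1.06. Supt4a (0.78 and 0.82) was not called under either correction for length, and Ms4a2 (−0.96) was not with the length and GC correction. Tspoap1 differed from Mpo in its course, with −2.16 in MDSC-NP-Blk against MDSC and −0.49 in CITED against MDSC-NP-Blk. On either side of the pair of Prtn3 and Elane, Ptbp1 had −0.47 and Med16 had −0.26 in CITED against MDSC. Cfd, a serine protease gene 2617 bases beyond Elane, was at or under the floor in every group. Mcpt8, the nearest gene to Ctsg, had −0.63, and the granzyme genes on the other side of Ctsg were at or under the floor.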

How the data were processed

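Bulk poly(A) RNA-seq of 12 MDSC libraries (4 MDSC, 4 MDSC-NP-Blk, 4 CITED) was used. The authors quantified reads with Salmon 1.4.0 against GENCODE transcripts of GRCm39, summed them per gene with tximport in R 4.3.2, and deposited whole-number counts, not normalized. The release and a strand setting are not given in the sources used here. Depth was 20604809 to 37855478 counts. Groups and replicate numbers came from the sample titles.

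The 17676 genes with at least 2 counts in all were tested in 1 fit of the 12 libraries with edgeR 4.0.16 (TMM, glmQLFit, glmQLFTest, R 4.3.3), with Benjamini-Hochberg adjustment. Standard errors were derived from F and the fold change. Ratios to Mpo (0.5 added to each count) used exact permutation tests in scipy 1.17.1. Alternatives were other scalings and filters, DESeq2 1.42.0, 8 libraries, a replicate block, glmTreat, and leaving out each library. Length corrections (loess, span 0.5) were added after seeing the data. The genes and lists were chosen with earlier results of these data known. Those named were the 6 genes, the 8 most like them, neighbors within 100 kb, and listed genes called or of known role. Same-numbered libraries did not deviate together, so the numbers were not taken to pair them. The edgeR fit and test of CITED against MDSC were tried on simulated counts, and the other steps were not.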

Additional observations from a re-analysis of the deposited data

How the results depend on the processing

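The 18 log2 fold changes of the 6 genes kept their direction under every alternative run. Their calls were kept as well, except that Ms4a3 in MDSC-NP-Blk against MDSC passed the threshold with total counts only (−1.04) and with the length correction (−1.02). Tested against a log2 fold change of 1 with glmTreat, CITED against MDSC had 722 called genes in place of 1765, the blank NP step 143 in place of 838, and the step from there to CITED 59 in place of 469. With each library left out in turn these numbers were 1631 to 1772, 722 to 892, and 417 to 474. No paired design is stated. Correlations of same-numbered libraries were −0.0393 to 0.0745, −0.0597 to 0.0278, and −0.0573 to 0.14 in the 3 comparisons, and with the replicate number as a block 1621, 766, and 441 genes were called. The block changed no call of the 6 genes. Of the ratios to Mpo, 5, 5, and 4 of 5 did not overlap between groups, which became 4 in MDSC-NP-Blk against MDSC with the length correction, where Ctsg overlapped (0.073), and stayed 5 with the length and GC correction (0.15). Each group had 4 libraries, and whether they came from separate mice is not stated, so p-values measure the spread between these libraries.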
